A study of Mus musculus with 24 samples.

Results

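Small RNAs guide proteins of the Argonaute family to RNA targets, and the 9 genes described here belong to 2 branches of that machinery. *Drosha* and *Dicer1* encode the nuclease pair that cuts microRNA precursors, first in the nucleus and then in the cytoplasm, and *Ago1*, *Ago2*, *Ago3* and *Ago4* encode the Argonautes that carry the products. *Piwil2*, *Ddx4* and *Mael* belong to the germline piRNA pathway, in which PIWI proteins and the granules around them hold transposons in check. Mouse oocytes are known for abundant endogenous siRNAs that depend on Dicer1, for microRNAs of little measurable activity, and for a piRNA pathway whose loss harms the male germline far more than the female. The genes were chosen by name: each of the 9 listed symbols was matched to its Ensembl gene, out of 55471 annotated genes in the count tables.

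SLIM-seq is a low-input form of m6A sequencing in which RNA captured by an antibody against N6-methyladenosine (IP) is sequenced beside RNA that was not captured (input). IP and input were measured in 3 libraries each at 3 stages of B6D2F1 mice, hybrids of C57BL/6J and DBA/2N: the MII oocyte, the late 1-cell embryo (L1C) and the late 2-cell embryo (L2C). MII oocytes came from superovulated females 8 weeks old, freed of cumulus cells, and embryos from superovulated females mated with B6D2F1 males and then cultured in KSOM. A separate RNA-seq experiment compared 3 libraries of L2C embryos in which *Ythdc1*, a nuclear m6A reader, was knocked down (KD) with 3 control libraries (NC), also of B6D2F1 mice. KD zygotes received Cas13d mRNA with 3 crRNAs against *Ythdc1*, and NC zygotes Cas13d mRNA only, so NC embryos were injected but carried no crRNA. The labels number the libraries but do not say that they came from separate collections, so P values measure the spread between these libraries.

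Total estimated counts were between 11107175 and 39739640 per SLIM-seq library. Exon counts over the whole annotation were 8696476 to 14500548 in 5 of the 6 KD and NC libraries. KD replicate 3 was used only up to chromosome 7, where it held 5439131 counts. Sums of 10 oocyte markers fell from 9600 to 11400 CPM, counts scaled to a common library total, in MII inputs to 761 to 788 in L2C inputs, and sums of 10 2-cell markers were 91.3 to 102 and 635 to 882 CPM in the same stages. Sums of 10 cumulus cell markers were 49.7 to 54.9 CPM in MII, 35.3 to 40.3 in L1C and 113 to 124 in L2C inputs. In these inputs *Amh*, *Foxl2* and *Ptx3* held at most 3 counts in each library, as did *Has2* at L2C. Which markers carried the sums, and the part of cumulus cell markers in the stage differences, was not tested.

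m6A is laid down mostly in a short consensus whose core in mammals is often GGACU. The coding sequences of 8 of the 9 genes hold GGACT, the DNA spelling of that core, at least once on the transcribed strand, against 71.7% of 21747 genes with a complete coding sequence. *Dicer1* held 10 copies, *Piwil2* 5, *Ago3* and *Ddx4* 4 each, *Drosha* and *Ago2* 2 each, and *Ago1* and *Mael* 1 each. The coding sequence of *Ago4* held none. Over the whole transcript, *Ago2* held 15 copies, *Ago3* 14, *Dicer1* 13 and *Ago1* 9. *Piwil2* held 7 there, *Ddx4* 4, *Drosha* and *Ago4* 3 each, and *Mael* 1. Per kb of coding sequence, *Ddx4* (1.83), *Dicer1* (1.75) and *Piwil2* (1.72) lay above the median of all genes of 1.03, and *Drosha* (0.486) and *Ago1* (0.389) below it. The last copy before the stop codon in each gene is shown here in transcript direction, with 10 bases on each side and the motif in capitals, as the kind of sequence that the antibody capture is meant to reflect. A match is a description of the sequence and not a mapped m6A site.
Drosha: ttgtgtgaaaGGACTtgaactgttt
Dicer1: tgcaaggaatGGACTctgagcttag
Ago1: cacctactcaGGACTgcagctcatt
Ago2: agctggagaaGGACTatcagccagg
Ago3: aaatcatccaGGACTtggcctccat
Piwil2: ccctcccccgGGACTgtggttgatc
Ddx4: ggttggctggGGACTttctaaagtc
Mael: tggccatgtgGGACTattctagcaa

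On GRCm38, with transcripts from GENCODE M21, these windows lie within coding exons at chr15:12866568-12866592 (plus strand) for *Drosha*, chr4:126448801-126448825 for *Ago1*, chr15:73111754-73111778 for *Ago2*, chr4:126350955-126350979 for *Ago3*, chr14:70376685-70376709 for *Piwil2* and chr1:166225596-166225620 for *Mael*, all but *Drosha* on the minus strand. The windows of *Dicer1* and *Ddx4* cross an exon junction, and their ends lie at chr12:104692461-104694497 and chr13:112604609-112611975, also on the minus strand. *Ago1*, *Ago3* and *Ago4* are neighbours on chromosome 4, on the same strand. *Ago2* overlaps *Chrac1*, which could take part of its reads. Small genes also overlap *Drosha* (*Gm47288*), *Piwil2* (*Gm22725* and *Gm24890*) and *Ago4* (*Gm12934* and *Gm12935*), and all 5 were listed at 0 in every SLIM-seq library. The *Drosha* gene spans 110477 bases, of which 5.37% are exon, and *Mael* has the smallest exon share of the 9 at 4.62% of 37547 bases.

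The first question was how the RNA of these genes changed from the oocyte to the embryo. From MII to L1C, 5 of the 9 genes rose in the inputs and none fell (Benjamini-Hochberg-adjusted p under 0.05 over all genes tested), while 56.2% of all 19903 genes tested passed. The 5 include *Ago1* and *Ago4*, whose calls rest on few counts as given with their values. From L1C to L2C, 3 rose and 4 fell, against 82.9% of all genes passing. Between MII and L2C there were 4 that rose and 4 that fell, against 84.6%. *Ago1* is among those that rose in both of these comparisons, and it passed the filter on low counts through its L2C libraries, where it is high. The shares of the 9 genes that passed were thus near the background at each step. From MII to L2C, *Piwil2* and *Drosha* had the largest rises among well covered genes and *Mael* and *Dicer1* the largest falls. Levels in the next paragraphs are CPM over the gene span, scaled by TMM over the 9 inputs. In bulk samples fewer cells of a type and less RNA per cell cannot be told apart, nor can a fall in one RNA and a rise in the total of the others. Scaling the inputs together with the IPs moved the median log2 change of all genes by -0.219 from L1C to L2C and -0.213 from MII to L2C. That fit also tested 21950 genes in place of 19903, so these moves do not measure scaling alone. For a single gene, *Ago2*, the change from MII to L2C went from 0.57 to 0.25. Library size scaling moved the median from MII to L2C by 0.145. The plot of input levels by stage shows every library.

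**Figure D1:**
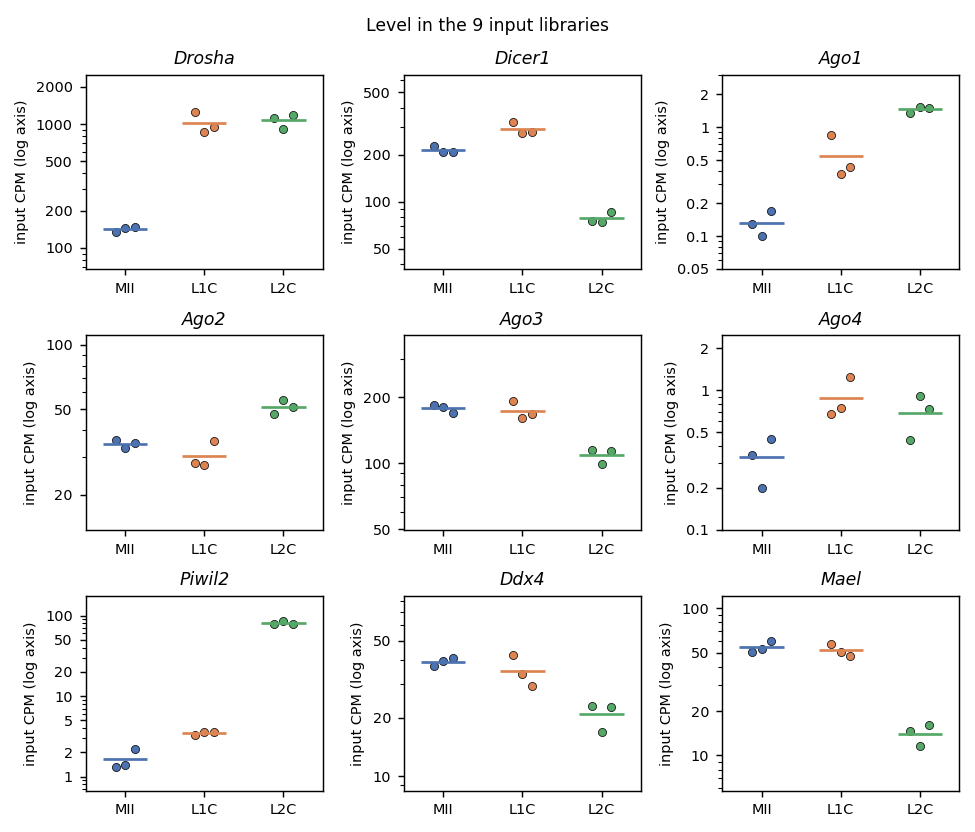
Input level of the 9 genes in CPM (log axis) at MII, L1C and L2C, scaled by TMM over the 9 inputs. Points are libraries and bars are means of 3. *Piwil2* lay between 1.34 and 2.198 CPM at MII and between 78.9 and 86.9 CPM at L2C, while *Mael* and *Dicer1* were lowest at L2C.

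*Drosha*, whose protein makes the first cut in microRNA maturation, was at 135, 146 and 146 CPM in the 3 MII inputs. It reached 1261, 861 and 945.5 CPM at L1C and 1125, 915 and 1197 CPM at L2C. All 6 embryo libraries lay far above the oocyte libraries, and the embryo stages overlapped. The log2 change from MII to L1C was 2.85 (SE 0.16, adjusted p = 5.05e-09), a 7.19-fold rise. From L1C to L2C it was 0.08 (SE 0.15, adjusted p = 0.635).

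*Dicer1*, whose protein makes the second cut and also produces siRNAs, held 229, 207 and 209 CPM at MII and 325, 275 and 279.9 CPM at L1C. Every L1C library was above every MII library, by 0.45 on the log2 scale (SE 0.12, adjusted p = 0.00480). At L2C it was at 75.8, 74.5 and 86.1 CPM, below all earlier libraries. The change from L1C to L2C was -1.90 (SE 0.12, adjusted p = 2.16e-09), a 3.72-fold fall. In span CPM the RNAs of the 2 nucleases therefore moved in the same direction after fertilization and differed at L2C, where *Drosha* stayed high. In the TPM deposited by the authors *Dicer1* overlapped between MII (25.3 to 28.8) and L1C (27.7 to 32.7). By exon counts, NC embryos at L2C held 115 CPM of *Drosha* and 196 CPM of *Dicer1*.

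Among the Argonautes, *Ago2*, the only mouse Argonaute protein with well established slicer activity, held 36.1, 32.9 and 34.7 CPM in MII inputs. It held 28.1, 27.5 and 35.6 CPM in L1C inputs and 47.9, 55.3 and 51.3 CPM in L2C inputs. MII and L1C overlapped, and the L2C libraries lay above both. The log2 change from L1C to L2C was 0.76 (SE 0.14, adjusted p = 0.000130). From MII to L2C it was 0.57 (SE 0.14, adjusted p = 0.00128), but 0.25 (adjusted p = 0.099) when the inputs were scaled together with the IP libraries. In the TPM deposited by the authors the direction turned, with 2.90 to 3.27 at MII and 2.65 to 2.88 at L2C, so a rise of *Ago2* from MII to L2C does not hold across scalings. *Chrac1*, which overlaps *Ago2*, held 31.0 to 50.0 counts in L1C inputs and 307 to 445 in L2C inputs, beside 592 to 665 and 1162 to 2028 for *Ago2*, and its part in the *Ago2* result was not tested. *Ago3* went the other way, with 184, 180.3 and 170.3 CPM at MII, 191, 162 and 169 CPM at L1C and 115, 99.4 and 114 CPM at L2C. MII and L1C overlapped again, and all L2C libraries were lower than all others (L1C to L2C, log2 -0.67, SE 0.12, adjusted p = 9.39e-05).

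*Ago1* and *Ago4* were hardly covered. *Ago1* held 3, 2 and 3 counts in the MII inputs, 20, 8 and 8 at L1C and 40, 32 and 59 at L2C, and the stages did not overlap in CPM. Pooled over libraries and per total count, the L1C to MII ratio was 4.46 (95% exact binomial interval 2.04 to 11.1) and the L2C to MII ratio 12.2 (6.025 to 28.9), where the interval covers counting error only. The fitted rises had adjusted p = 0.00526 from MII to L1C, 0.00493 from L1C to L2C and 1.34e-05 from MII to L2C. *Ago1* passed the filter on low counts through its L2C libraries, and in a fit of MII and L1C inputs only it did not pass the filter, so the call at the first step has no value without L2C. Its calls from L1C to L2C and from MII to L2C rest on those same libraries and give no independent support. *Ago4* held 8, 4 and 8 counts at MII, followed by 16, 16 and 23 at L1C and then 13, 19 and 29 at L2C. Its log2 change from MII to L1C of 1.40 (SE 0.49) passed at an adjusted p of 0.0255, and lost that call when MII replicate 1 (1.44, adjusted p = 0.0611), MII replicate 2 (1.14, 0.103) or L1C replicate 3 (1.09, 0.111) was left out. It also lost that call with DESeq2 (1.355, adjusted p = 0.0727) and with inputs scaled together with the IPs (1.32, adjusted p = 0.0558).

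*Piwil2*, the PIWI protein known for primary piRNA loading in fetal germ cells, was at 1.34, 1.40 and 2.198 CPM at MII and at 3.26, 3.62 and 3.56 CPM in the L1C inputs. It then reached 78.9, 86.9 and 79.7 CPM at L2C. No stage overlapped another. The log2 change was 1.10 (SE 0.20, adjusted p = 0.000417) from MII to L1C and 4.56 (SE 0.18, adjusted p = 2.03e-11) from L1C to L2C, a 23.5-fold rise. Summed CPM of 8 spermatogenic cell markers, a cell type in which *Piwil2* is also high, was 3.89 to 5.01 in MII inputs and 65.5 to 79.1 in L2C inputs, with *Odf1* and *Tnp1* at 3 counts or fewer in every L2C input. The part of those transcripts in the *Piwil2* result was not tested.

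*Ddx4*, the germ cell RNA helicase also called Vasa, held 36.8, 39.2 and 41.0 CPM in MII inputs. It held 42.4, 33.7 and 29.1 CPM in L1C inputs and 23.2, 16.9 and 22.8 CPM in L2C inputs. MII and L1C overlapped, and the L2C libraries were the lowest (L1C to L2C, log2 -0.74, SE 0.17, adjusted p = 0.000948). *Mael*, which encodes the piRNA pathway protein Maelstrom, was at 50.0, 52.5 and 60.2 CPM at MII and 56.8, 50.4 and 47.7 CPM at L1C. Its L2C values of 14.7, 11.5 and 16.0 CPM were well below. The log2 change was -0.07 (SE 0.15, adjusted p = 0.705) from MII to L1C and -1.87 (SE 0.15, adjusted p = 3.43e-08) from L1C to L2C, a 3.65-fold fall. The 3 piRNA pathway genes thus did not move as a group.

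Levels between genes can be compared only per length. The length used here is the gene span, introns included, of which exons make up 4.62% in *Mael* and 26.1% in *Dicer1*. The orders in this paragraph are therefore not orders of mRNA level, and by exon the order at L2C differed, as given below. TPM also scales libraries differently from CPM, and in it all L1C libraries lay below all MII libraries for *Ago2*, *Ago3*, *Ddx4* and *Mael*, which overlapped in CPM, while *Dicer1* overlapped between MII and L1C. In TPM deposited by the authors, divided by the length of the gene span, *Dicer1* was first at MII (26.5 ± 2.04, mean ± SD, n = 3), followed by *Ago3* (14.4 ± 0.853), *Mael* (11.5 ± 0.910), *Drosha* (10.2 ± 0.258), *Ddx4* (5.70 ± 0.186), *Ago2* (3.07 ± 0.190), *Piwil2* (0.228 ± 0.0623), *Ago4* (0.0598 ± 0.0222) and *Ago1* (0.0313 ± 0.00790). Only the last neighbours, *Ago4* and *Ago1*, overlapped. At L1C *Drosha* came first (59.7 ± 12.2) and *Dicer1* next (29.6 ± 2.72), then *Ago3* (11.5 ± 1.00), *Mael* (8.92 ± 0.785), *Ddx4* (4.19 ± 0.795), *Ago2* (2.21 ± 0.335), *Piwil2* (0.397 ± 0.0230), *Ago4* (0.131 ± 0.0460) and *Ago1* (0.106 ± 0.0498), and again *Ago4* and *Ago1* alone overlapped as neighbours. At L2C *Drosha* (46.5 ± 7.05) was followed by *Piwil2* (6.85 ± 0.254), *Dicer1* (5.84 ± 0.458), *Ago3* (5.32 ± 0.556), *Ago2* (2.75 ± 0.118), *Ddx4* (1.85 ± 0.356), *Mael* (1.80 ± 0.319), *Ago1* (0.207 ± 0.00617) and *Ago4* (0.0747 ± 0.0234). There, *Dicer1* overlapped *Ago3*, and *Ddx4* overlapped *Mael*.

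The SLIM-seq counts cover introns, whereas the KD experiment counted exons only. Mean span CPM in L2C inputs, on plain library totals, was set against mean exon CPM in NC embryos, which are of the same stage but injected. *Drosha* was at 1139 CPM by span and 115 CPM by exon, a ratio of 9.94 at the 95.2th percentile of 12893 genes with at least 10 counts in all 6 libraries. *Piwil2* was at 86.4 and 17.0 CPM (5.08, percentile 88.7). The median ratio of all genes was 1.03. *Dicer1* (0.423), *Mael* (0.280) and *Ago4* (0.197) lay below it, as did *Ago1* (0.802), *Ago2* (0.783), *Ago3* (0.703) and *Ddx4* (0.789). How much of the *Drosha* and *Piwil2* rise in the inputs lay in introns was not tested. The histogram of span to exon ratios places the 9 genes among all others.

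**Figure D2:**
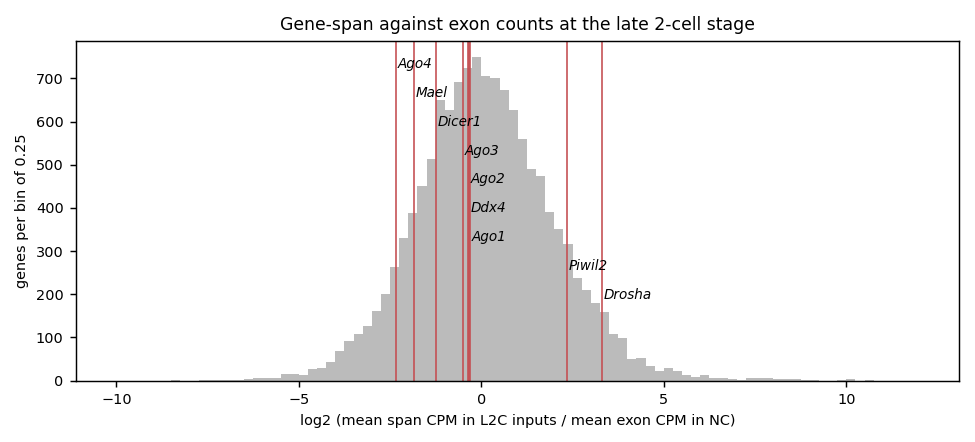
Number of genes by the log2 ratio of mean span CPM in 3 L2C inputs to mean exon CPM in 3 NC libraries, for 12893 genes. Red lines mark the 9 genes, of which *Drosha* (9.94 on the linear scale) and *Piwil2* (5.08) lie far to the right.

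Counted per kb of exon, NC embryos at L2C gave the order *Mael* (30.6 ± 1.26 RPKM), *Drosha* (19.3 ± 0.499), *Dicer1* (11.7 ± 0.307), *Ago3* (9.92 ± 0.347), *Ddx4* (9.30 ± 0.407), *Ago2* (4.95 ± 0.473), *Piwil2* (3.22 ± 0.102), *Ago4* (0.534 ± 0.0704) and *Ago1* (0.236 ± 0.0899). *Ago3* and *Ddx4* overlapped, and no other neighbours did. *Mael* therefore led this order although it was among the last by span.

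The second question was which of these RNAs were enriched by the m6A antibody. At MII, 3 genes were higher in IP than in input and 2 lower, with 38.6% of 21950 genes tested passing in either direction. At L1C 1 was higher and 3 lower (33.9% of all genes), and at L2C 1 was higher and 2 lower (44.0%). *Drosha*, *Dicer1* and low-count *Ago1* passed as enriched at MII, *Mael* at both embryo stages, and *Piwil2* was depleted at every stage. In stage order the median log2 IP/input over the 9 genes was 0.21, -0.17 and 0.05, beside 0.00, 0.07 and 0.09 over all genes. CPM in this section is scaled by TMM over all 18 libraries, so inputs differ somewhat from the values above. It covers the gene span, introns included, so enrichment of the spliced mRNA alone was not tested.

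Scaling matters here, because IP and input differ in composition. With library size alone the median of all genes rose by 0.199 at MII, 0.300 at L1C and 0.253 at L2C on the log2 scale, and calls that were higher went from 45.7% to 61.7%, 46.5% to 70.9% and 50.0% to 67.6% of all calls. Of the 9 genes, 4 were then higher and 2 lower at MII. At L1C 1 was higher and 0 lower, and at L2C 4 were higher and 2 lower, with *Dicer1*, *Ago1* and *Ago3* as the additions. The 3 genes that lost their lower call at L1C were *Drosha*, *Ago3* and *Piwil2*. With a looser threshold modelled in part on the methods (log2 above 0, unadjusted p under 0.05, more than 1 count in each input) the enriched genes were again 3, 1 and 1. It was applied to the edgeR fit and leaves out the study's DESeq2 test, its rule for missing P values and its count of replicates.

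*Drosha* had IP values of 338, 397 and 348.5 CPM at MII against inputs of 165, 175 and 174 CPM. At L1C the IPs were at 615, 911 and 742 CPM and the inputs at 1443, 979 and 1062 CPM. At L2C the IPs were at 616, 571 and 690.0 CPM and the inputs at 1089, 867 and 1159 CPM. Thus in CPM all IPs were above all inputs at MII and below them at L1C and L2C. In the deposited TPM they overlapped at L1C, with IPs at 39.2, 53.7 and 42.55 and inputs at 73.4, 50.25 and 55.5. Log2 IP/input was 1.08 (SE 0.16, adjusted p = 2.19e-05) at MII, -0.62 (SE 0.16, adjusted p = 0.00473) at L1C and -0.73 (SE 0.16, adjusted p = 0.00103) at L2C. The L1C value was -0.32 (adjusted p = 0.0899) with library size scaling.

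*Dicer1* had IPs of 513, 412 and 535 CPM at MII, all above inputs of 280.1, 248 and 249 CPM (log2 0.91, SE 0.12, adjusted p = 6.72e-06). At L1C the IPs of 346, 336 and 279 CPM overlapped the inputs of 373, 313 and 314.5 CPM (-0.06, SE 0.12, adjusted p = 0.762). At L2C the IPs of 78.9, 75.0 and 81.6 CPM overlapped the inputs of 73.4, 70.6 and 83.4 CPM (0.05, SE 0.12, adjusted p = 0.769). Both nucleases thus passed as enriched in the oocyte only.

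The stage differences themselves were tested as an interaction of stage and IP. For L1C against MII, *Drosha* (-1.70, SE 0.22, adjusted p = 7.14e-05) and *Dicer1* (-0.97, SE 0.17, adjusted p = 0.00121) passed as lower, and none of the 9 as higher, while 7.33% of all genes passed. Of the calls over all genes 42.6% were higher, or 53.3% with library size scaling. Lower calls prevailed more with the replicate number as a block (380 higher, 687 lower) and in a fit of those stages only (444 higher, 1083 lower). For L2C against MII, *Drosha* (-1.81, SE 0.22, adjusted p = 1.42e-05) and *Dicer1* (-0.86, SE 0.17, adjusted p = 0.00141) were lower, and *Ddx4* (0.91, SE 0.23, adjusted p = 0.00845) and *Mael* (0.59, SE 0.20, adjusted p = 0.0439) higher, with 20.3% of all genes passing. *Ago3* was at 0.39 (adjusted p = 0.0596) there, and passed as higher with library size scaling (0.41, adjusted p = 0.0391), with DESeq2 (0.32, 0.0386) and without L2C IP replicate 2 (0.43, 0.0491). For L2C against L1C, *Ago3* (0.67, SE 0.14, adjusted p = 0.00610) was the 1 gene that passed, with 9.47% of all genes passing. That background depended on the fit, from 1168 of 21950 genes with the replicate block to 3101 of 20151 with DESeq2. The comparisons between stages share libraries, so they are not independent of each other. The *Ago3* call for L2C against L1C was lost in a fit of only those 2 stages (0.49, adjusted p = 0.0714), in which *Piwil2* passed as lower (-0.76, adjusted p = 0.0389). The *Mael* call was lost with the replicate number as a block (0.60, adjusted p = 0.0892), without any filter, with DESeq2, in the fit of the stages compared only, and when any of 8 single libraries was left out (0.45 to 0.69 over all that were left out).

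**Figure D3:**
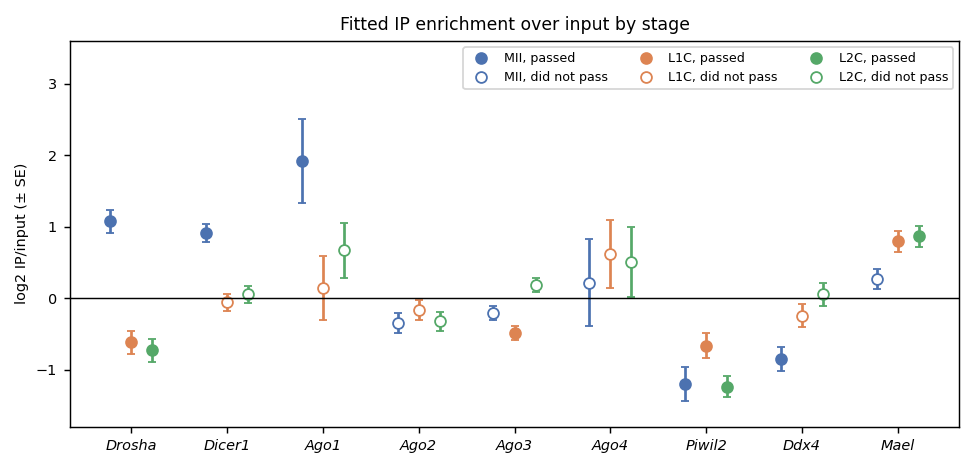
Fitted log2 IP/input ± SE of the 9 genes at MII, L1C and L2C (3 IP and 3 input libraries per stage). Filled points passed an adjusted p under 0.05. *Drosha* fell from 1.08 at MII to -0.62 and -0.73 in the embryo, while *Mael* was at 0.79 and 0.87 in the embryo.

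Among the Argonautes, only low-count *Ago1* was called enriched, at MII, where neither *Ago1* nor *Ago4* passed the filter on low counts in a fit of that stage only. Its IPs held 4, 21 and 8 counts against 3, 2 and 3 in the inputs. Per total count the pooled ratio was 4.64 (95% exact binomial interval 2.10 to 11.6, counting error only). The fitted log2 of 1.92 (SE 0.59, adjusted p = 0.0145) rested on IP replicate 2, without which it was 1.149 (adjusted p = 0.163), and it also lost its call without input replicate 2 (1.76, adjusted p = 0.0552). *Ago3* was lower in IP at L1C, with 138, 146 and 138 CPM against 219, 184 and 189 CPM and no overlap (log2 -0.49, SE 0.10, adjusted p = 0.000834). With library size scaling that value was -0.19 (adjusted p = 0.128). *Ago2* and *Ago4* passed at no stage, and *Ago2* stood at -0.35 (adjusted p = 0.0509), -0.17 (0.370) and -0.32 (0.0602). *Ago2* was close to the threshold and passed as lower in the fit of single stages at MII (-0.30, adjusted p = 0.0425) and L2C (-0.36, 0.0241), with DESeq2 at L2C (-0.33, 0.0398), and without IP replicate 2 at MII (-0.47, 0.0192).

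*Mael* passed as enriched at both embryo stages. At MII its IPs of 82.9, 66.9 and 86.8 CPM overlapped inputs of 61.3, 63.0 and 71.7 CPM (log2 0.27, SE 0.14, adjusted p = 0.139). At L1C the IPs were at 103.5, 99.2 and 102 CPM and the inputs at 65.0, 57.3 and 53.5 CPM (0.79, SE 0.14, adjusted p = 0.000210). At L2C they were at 23.2, 29.0 and 22.5 CPM and 14.3, 10.9 and 15.5 CPM (0.87, SE 0.15, adjusted p = 9.48e-05). In both embryo stages every IP library lay above every input library, although the RNA itself was much scarcer at L2C. With library size scaling *Mael* also passed at MII (0.51, adjusted p = 0.00816).

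*Piwil2* was depleted from the IP at all 3 stages. Its IPs held 14, 17 and 14 counts at MII against 31, 28 and 39 in the inputs (log2 -1.20, SE 0.24, adjusted p = 0.000479). At L1C the IPs were at 2.67, 2.94 and 1.91 CPM against 3.73, 4.12 and 4.00 CPM (-0.66, SE 0.18, adjusted p = 0.00744), and that value missed the threshold without IP replicate 3 (-0.49, adjusted p = 0.0518) and with library size scaling (-0.36, adjusted p = 0.114). At L2C they were at 36.2, 29.8 and 33.9 CPM against 76.4, 82.3 and 77.2 CPM (-1.24, SE 0.15, adjusted p = 2.96e-06). *Ddx4* was depleted at MII only by the count of calls, with IPs of 26.2, 21.8 and 30.1 CPM against 45.1, 47.0 and 48.7 CPM (-0.85, SE 0.16, adjusted p = 0.000340). At L1C (-0.25, SE 0.16) and L2C (0.05, SE 0.16) its IPs and inputs overlapped.

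The third question was what the loss of *Ythdc1* did to these RNAs at L2C. The 3 crRNAs, each the reverse complement of a stretch found in all 3 protein-coding *Ythdc1* transcripts, are shown because they define the knockdown.
crRNA 1: cctcattctcagtgttgttgccc
crRNA 2: aattcatcatcctgttctggtac
crRNA 3: ctctcagaaccatctggtgtagg

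*Ythdc1* itself was at 523, 541 and 519 CPM in KD against 1080.0, 1098 and 994 CPM in NC, with no overlap (log2 -1.004, SE 0.06, adjusted p = 1.34e-10). The merged count table of the authors ends on chromosome 7 and holds *Ago1*, *Ago3*, *Ago4* and *Mael* with 3 KD libraries, and its CPM is scaled to the counts in it. The other 5 genes come from files of the whole annotation, where KD replicate 3 was not used here, so KD has 2 libraries. Among the 4 genes held there, 1 passed, against 70.9% of 7433 genes tested. Of the other 5 genes 2 passed, against 66.8% of 17074. Library size scaling moved the median of all genes in the merged table by -0.124. The median log2 change was 0.02 over the 9 genes and -0.09 over all genes of the whole annotation.

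*Mael* was the 1 gene that fell. Its exon counts were 192, 130 and 236 in KD and 747, 718 and 454 in NC, or 45.9, 36.2 and 45.7 CPM against 132.5, 143 and 131.5 CPM. Every KD library was far below every NC library. The log2 change was -1.66 (SE 0.11, adjusted p = 2.52e-10), a 3.17-fold fall, and it was -1.71 (SE 0.13, adjusted p = 2.11e-08) in the fit of the whole annotation.

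*Piwil2* rose, with 353 and 243 counts in KD and 248, 212 and 152 in NC, or 32.6 and 26.0 CPM against 17.0, 16.2 and 16.8 CPM (log2 0.82, SE 0.13, adjusted p = 5.74e-05). *Ddx4* rose as well, at 45.7 and 38.7 CPM against 27.1, 26.9 and 28.4 CPM (0.62, SE 0.11, adjusted p = 0.000143). Neither overlapped between groups. Over all genes, 70.9% were called in the merged table and 66.8% over the whole annotation. Of 20 further microRNA and siRNA genes 11 rose and 6 fell, and of 28 further piRNA genes tested 10 rose and 13 fell. Calls were therefore not confined to the piRNA pathway. Among the genes described here, the 3 of the piRNA pathway were the ones that passed, in different directions. With the cut-offs of the study (unadjusted p under 0.05, log2 change above 1 in size) applied to the edgeR fit in place of its DESeq2 test, *Mael* alone remained.

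The nucleases and the Argonautes among the 9 genes did not pass. *Drosha* was at 111 and 117 CPM in KD against 117, 111.5 and 109 CPM in NC (log2 0.02, SE 0.09, adjusted p = 0.865), and *Dicer1* at 188 and 187 CPM against 196, 198 and 184 CPM (-0.04, SE 0.08, adjusted p = 0.655). *Ago2* stood at 70.8 and 75.7 CPM against 67.5, 62.8 and 73.8 CPM (0.11, SE 0.10, adjusted p = 0.357). *Ago3* stood at 425, 399 and 416 CPM against 424.5, 437 and 399 CPM (-0.02, SE 0.07, adjusted p = 0.760). All 4 overlapped between groups. *Ago3* passed as lower with library size scaling (-0.15, adjusted p = 0.0422). *Ago1* held 31, 19 and 42 counts in KD and 21, 20 and 24 in NC (0.56, SE 0.34, adjusted p = 0.145), and passed as higher without NC replicate 3 (0.86, adjusted p = 0.0436). *Ago4* held 26, 22 and 50 counts in KD and 48, 46 and 37 in NC (-0.33, SE 0.28, adjusted p = 0.297). In the fit of the whole annotation, without KD replicate 3, *Ago4* was at -0.60 (adjusted p = 0.102).

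**Figure D4:**
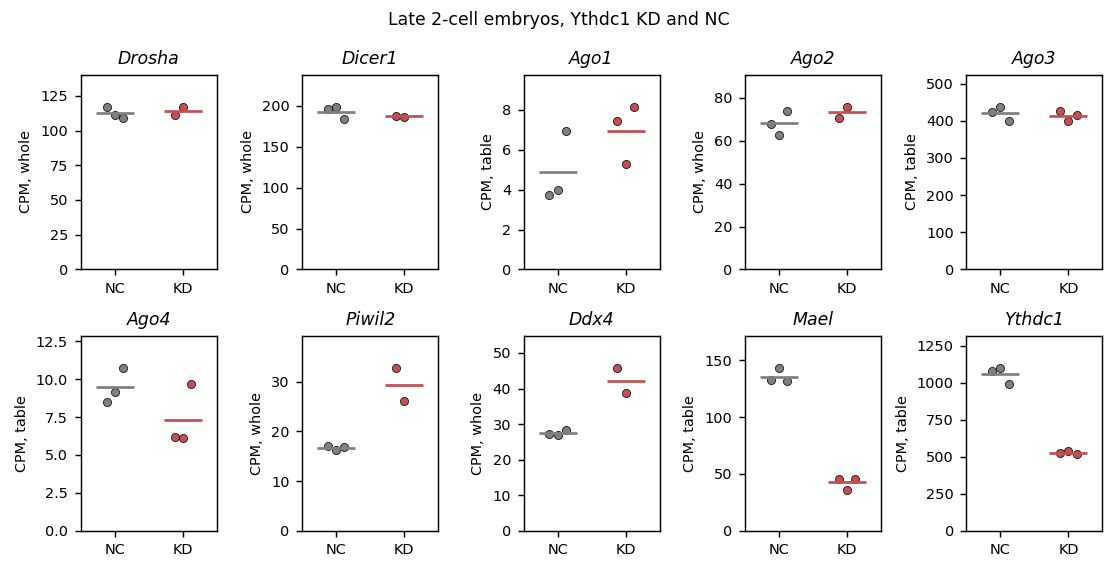
Exon CPM of the 9 genes and of *Ythdc1* in NC and KD embryos at L2C (linear axes from 0). Points are libraries and bars are means, with 3 KD libraries for genes in the merged table and 2 for genes counted over the whole annotation. *Mael* fell to 36.2 to 45.9 CPM from 131.5 to 143 CPM, and *Piwil2* and *Ddx4* rose.

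Stage markers moved with the knockdown. Summed CPM of 10 2-cell markers was 482 to 525 in KD and 1410 to 1520 in NC, with none of them at 3 counts or fewer. Summed CPM of 10 oocyte markers was 781 to 851 in KD and 1580 to 1720 in NC, with *Figla* at 3 counts or fewer. Summed CPM of 10 cumulus cell markers was 236 to 245 in KD and 136 to 141 in NC, of which 6 held at most 3 counts in each group. Summed CPM of 8 spermatogenic cell markers was 1.29 to 2.35 in KD and 3.88 to 6.66 in NC. Their part in the *Mael*, *Piwil2* and *Ddx4* results was not tested.

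Of 20 further genes for processing and effectors of microRNAs and siRNAs, IP was higher for 2, 0 and 2 and lower for 10, 11 and 10 in stage order, with median log2 IP/input of -0.35, -0.46 and -0.34. Over all genes 38.6%, 33.9% and 44.0% were called in either direction, as given above. With library size scaling the counts were 5 and 8, 6 and 6, and 7 and 8, so the balance of higher and lower calls depended on the scaling at every stage. *Tnrc6c*, an Argonaute partner in silencing, had the largest value among those higher at MII (0.70, SE 0.15, adjusted p = 0.00101). *Gemin4* was listed at 0 in all IPs of MII and L1C, beside 49 to 90 and 14 to 48 counts in the inputs. *Prkra*, a Dicer1 cofactor, was higher at L2C with 16, 7 and 11 counts against 2, 1 and 2. In the inputs, 5 rose and 10 fell from MII to L1C (56.2% of all genes called) and 7 and 7 from L1C to L2C (82.9%). *Mov10*, an RNA helicase, rose from MII to L1C by 2.11 (SE 0.11, adjusted p = 1.92e-09), although it held only 2 to 5 exon counts per NC library. *Tsn*, a subunit of the passenger strand nuclease C3PO, fell by 1.53 on the log2 scale (SE 0.13, adjusted p = 2.46e-07). *Ddx20* rose from L1C to L2C by 4.64 (SE 0.19, adjusted p = 3.14e-11).

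Of 11 genes for tailing and turnover of small RNAs, IP was higher for 1, 2 and 4 and lower for 4, 4 and 2 at MII, L1C and L2C, with medians of -0.34, -0.25 and 0.35, beside 38.6%, 33.9% and 44.0% of all genes called. With library size scaling 2, 3 and 5 were higher and 2, 2 and 2 lower. *Papd5* (*Tent4b*), a noncanonical poly(A) polymerase, was the most enriched at each stage, at 3.74 (SE 0.24, adjusted p = 5.05e-10), 2.24 (SE 0.20, adjusted p = 9.53e-08) and 1.12 (SE 0.18, adjusted p = 6.56e-05). *Lin28a*, which blocks let-7 maturation, was the most depleted at each stage, at -1.84, -1.22 and -0.73 (adjusted p = 1.34e-10, 4.27e-08 and 1.51e-05). In the inputs 3 rose and 5 fell from MII to L1C (56.2% of all genes called), and 4 rose and 6 fell from L1C to L2C (82.9%). *Papd5* rose at both steps, by 1.77 and 2.80 (adjusted p = 0.000147 and 5.73e-08). *Dis3l2*, the nuclease of uridylated let-7 precursors, fell by 0.89 (adjusted p = 0.00176) at the first step and *Pnpt1* fell by 2.37 (adjusted p = 7.21e-07) at the second.

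Of 29 further piRNA pathway genes, IP was higher for 10, 6 and 8 and lower for 11, 12 and 11 at MII, L1C and L2C, with medians of 0.01, -0.42 and -0.14, beside the same 38.6%, 33.9% and 44.0% of all genes called. With library size scaling 12, 7 and 10 were higher and 10, 8 and 7 lower. *Mybl1*, the transcription factor of piRNA clusters in the testis, was enriched at all 3 stages (1.51, 1.62 and 1.38, adjusted p = 0.000159, 8.45e-05 and 0.000114). *Piwil1*, a PIWI protein like *Piwil2*, was depleted at all 3 stages (-2.66, -2.13 and -1.48, adjusted p = 1.07e-10, 3.42e-09 and 9.67e-07). *Gpat2* was depleted at MII (-2.13, adjusted p = 0.00757) and L2C (-1.94, adjusted p = 0.00203), and was at -1.19 (adjusted p = 0.0994) at L1C. In the inputs 11 of 28 tested rose and 6 fell from MII to L1C (56.2% of all genes called), and 10 rose and 15 fell from L1C to L2C (82.9%). *Pld6*, a nuclease in piRNA biogenesis, fell by 2.35 on the log2 scale from MII to L1C (adjusted p = 2.23e-07), and *Gtsf1l* had 0, 3 and 0 counts at MII and 13, 6 and 6 at L1C. *Wdr77*, a partner of *Prmt5*, rose by 7.93 from L1C to L2C (SE 0.21, adjusted p = 7.64e-13), and *Tdrd12* fell by 4.84 (SE 0.17, adjusted p = 6.86e-12).

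In the interaction of stage and IP (L1C against MII, L2C against L1C, L2C against MII), 0, 3 and 4 of the 20 microRNA and siRNA genes were higher and 1, 0 and 4 lower. Of the 11 tailing genes 1, 2 and 3 were higher and 2, 1 and 1 lower, and of the 29 piRNA genes 0, 5 and 4 were higher and 4, 0 and 4 lower, beside 7.33%, 9.47% and 20.3% of all genes. At L2C against L1C none of the piRNA genes was called higher with the replicate block or in the fit of those stages only, in place of 5. *Gemin4* was called higher in both comparisons with L2C, where its IPs held 561, 140 and 270 counts beside 723, 723 and 1106 in the inputs, after IPs at 0 in the earlier stages. *Lin28a* was higher at L1C than at MII (0.62, adjusted p = 0.0103, or 0.0856 without a filter), *Parn* at L2C than at L1C (0.75, adjusted p = 0.00419), and *Pnpt1* (1.70, adjusted p = 0.00572) and *Dnmt3c* (1.48, adjusted p = 0.00177) at L2C than at MII. *Wdr77* was higher at L2C than at L1C (1.12, adjusted p = 0.0388), a call lost with the block, in the fit of those stages only and when any of 8 single libraries was left out (adjusted p up to 0.125). *Dgcr8*, the partner of *Drosha*, was lower at L1C than at MII (-0.81, adjusted p = 0.0238), a call lost without MII input replicate 3 (-0.70, 0.0691), MII IP replicate 2 (-0.73, 0.0623) or L1C IP replicate 3 (-0.70, 0.0631), and *Tnrc6c* was lower at L2C than at MII (-0.95, adjusted p = 0.00334). *Papd5* was lower at the later stage in each (-1.50, -1.12 and -2.62, adjusted p = 0.00482, 0.0127 and 5.69e-06). *Tdrd5*, a piRNA granule protein, was lower in both embryo stages than at MII (-1.64 and -1.08, adjusted p = 7.14e-05 and 0.00238).

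After *Ythdc1* KD, 11 of the 20 microRNA and siRNA genes rose and 6 fell, 3 of the 11 tailing genes rose and 2 fell, and 10 of 28 tested piRNA genes rose and 13 fell, with medians of 0.38, -0.11 and -0.06. These counts stand beside 70.9% of all genes called in the merged table and 66.8% over the whole annotation. *Fkbp6*, a cochaperone of PIWI loading, had 280, 267 and 272 counts in KD and 118, 108 and 77 in NC (log2 1.58, SE 0.14, adjusted p = 1.91e-08). *Dis3l2* had 4, 3 and 6 counts against 54, 31 and 42. *Prkra* had 0 counts in all 3 KD libraries and 21, 17 and 14 in NC, and *Tdrd6* had 0 in both KD libraries counted and 15, 12 and 10 in NC. *Mov10* (10, 10 and 21 counts against 4, 5 and 2) and *Zswim8* (16 and 12 against 5, 5 and 1) rose from few counts (adjusted p = 0.00112 and 0.00324), and *Zswim8* missed the threshold without KD replicate 1 (adjusted p = 0.0682).

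For each of the 9 genes the protein-coding gene outside the group with the most similar course over the 18 SLIM-seq libraries was sought among 16109 genes, by Pearson's r of log2 CPM. It was *Ash2l* for *Drosha* (r = 0.988), *Usp3* for *Dicer1* (0.990), *Tex19.1* for *Ago2* (0.9501), *Ubash3b* for *Ago3* (0.966), *Slc1a5* for *Piwil2* (0.996), *Eri2* for *Ddx4* (0.980) and *Gm20075* for *Mael* (0.996). For the sparsely counted *Ago1* and *Ago4* it was *Ccpg1os* (0.951) and *Lrrc75a* (0.859). The 18 points share stages and the split into IP and input, so the values are descriptions.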

How the data were processed

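For SLIM-seq the authors ran kallisto with each annotated gene as 1 target that spans the whole gene, introns included, and deposited estimated counts and TPM per library. The KD files hold raw counts of reads on exons, deposited after trimming (Trimmomatic), alignment to GRCm38 (HISAT2) and counting with featureCounts 2.0.1. Its command line sets no strand, so reads of overlapping genes on opposite strands cannot be told apart. 

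Estimated counts were rounded. edgeR 4.0.16 (R 4.3.3) fitted TMM-scaled counts with its quasi-likelihood test and filter on low counts: 18 SLIM-seq libraries together, 9 inputs together, and KD against NC. Calls are at a Benjamini-Hochberg-adjusted p under 0.05 over all genes tested, and all 9 genes passed the filter in these fits, *Ago1* through the libraries in which it is high. The merged KD table holds 25739 genes. The deposited file of KD replicate 3 ends at the same place, and genes beyond it were tested on the other 5 libraries. DESeq2 1.42.0, library size scaling, no filter, the replicate block, fewer stages, cut-offs taken in part from the study and each library left out in turn were the alternatives. Scaling the inputs with all 18 libraries was added after the data were seen. Fits were tested on simulated data. Exact binomial intervals (95%) cover counting error only. Genes from each list are the called gene with the largest change in each direction per comparison. The 9 genes and the lists were chosen with earlier results of these data known. Motifs and positions were read from GENCODE M21 and the GRCm38 genome, and the crRNAs from the supplementary tables of the study. Figures were drawn with Python 3.11.15 and matplotlib 3.10.9. Same-numbered libraries did not deviate together, and replicates of a group differed by more than counting error (chi-square per degree of freedom 2.77 to 41.5).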

Additional observations from a re-analysis of the deposited data

Results flagged for a closer look

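By the interaction of stage and IP in edgeR, log2 IP/input differed for 2 of the 9 genes at L1C against MII (7.33% of all genes), 1 at L2C against L1C (9.47%) and 4 at L2C against MII (20.3%). The *Drosha* value differed by -1.70 between L1C and MII and by -1.81 between L2C and MII, and changed sign. The *Dicer1* value differed by -0.97 and -0.86 for the same pairs. *Ago3* differed by 0.67 between L2C and L1C, a call lost in the fit of those stages only. *Ddx4* differed by 0.91 and *Mael* by 0.59 between L2C and MII, and *Mael* stood close to the threshold (adjusted p = 0.0439) and lost its call in several alternatives.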

How the results depend on the processing

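Over the planned and added alternatives, 1079 values of the 9 genes kept their direction and side of the threshold, 25 lost their call, 17 gained one and 50 changed sign, none of them called as reported. With library size scaling, calls went to 0 lower at L1C and 4 higher at L2C for IP against input, and to 2 lower for KD. *Ago3* then changed sign at MII (0.032), as did *Dicer1* (0.25), *Ago2* (0.14) and *Ddx4* (0.056) at L1C, *Ago3* from MII to L1C in the inputs (0.015) and *Drosha* in KD (-0.057). In fits of only the stages compared, IP/input at L2C against L1C gave 0 higher and 1 lower, with *Dicer1* at -0.076 and *Mael* at -0.10, and L2C against MII gave 1 higher, with *Ago2* at -0.14. *Drosha* was at -0.006 from L1C to L2C in that fit and at -0.16 with inputs scaled with all 18 libraries. Without a filter, IP/input at L2C against MII gave 1 higher, *Ago2* was at -0.016 and *Drosha* in KD at -0.003. With DESeq2, *Ago2* was at -0.05 there. By the cut-offs of the study on the edgeR fit, 0 genes were higher in KD. In fits of fewer stages *Ago1* and *Ago4* (IP at MII) and *Ago1* (inputs, MII to L1C) did not pass the filter and have no value. The cause was not tested.

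Same-numbered libraries correlated between -0.154 and 0.133 in their deviations from group means, so the numbers were not taken to pair them. The study states that IP and input RNA came from shared batches, but does not tie the numbers to batches. With the replicate block, IP/input at L2C against MII gave 1 higher in place of 2, since *Mael* missed the threshold (0.60, adjusted p = 0.0892), and *Drosha* in KD was at -0.004. The other counts of calls among the 9 genes did not change.

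When each library was left out, genes called higher in IP/input numbered 0 to 1 at L1C against MII and 1 to 2 at L2C against MII. In IP against input, ranges that crossed 0 were -0.58 to 0.70 (*Ago4*, MII), -0.16 to 0.029 (*Dicer1*, L1C), -0.087 to 0.61 (*Ago1*, L1C), -0.008 to 0.11 (*Dicer1*, L2C) and -0.096 to 0.14 (*Ddx4*, L2C). In IP/input they were -0.082 to 1.20 (*Ago4*, L1C against MII), -0.42 to 0.16 (*Ago4*), -0.063 to 0.17 (*Mael*) and -0.30 to 0.033 (*Drosha*) at L2C against L1C, and -0.045 to 0.14 (*Ago2*), -0.29 to 0.078 (*Piwil2*) and -0.20 to 1.08 (*Ago4*) at L2C against MII. In inputs they were -0.14 to 0.001 (*Mael*) and -0.11 to 0.007 (*Ago3*) from MII to L1C and -0.045 to 0.23 (*Drosha*) from L1C to L2C, and in KD -0.015 to 0.062 (*Drosha*) and -0.056 to 0.013 (*Ago3*). Where this leaves 1 KD library, it is assumed to vary like the others. *Ago1* and *Ago4*, with 1 to 110 counts per SLIM-seq library, are limited by depth.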
